A study of Homo sapiens with 4 samples.

Results

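The human mitochondrial genome carries 37 genes, and all 37 were among the 20329 genes measured here by RNA sequencing. They were taken by name, as every gene whose symbol starts with MT-, and comprise 13 protein-coding genes, 2 ribosomal RNA (rRNA) genes and 22 transfer RNA (tRNA) genes, 28 on the plus strand and 9 on the minus strand. The study knocked down hnRNPM, a nuclear RNA-binding protein known as a splicing regulator, in 2 sublines of MDA-MB-231, an established triple-negative breast cancer cell line: BM1, the derivative from bone metastasis, and LM2. The groups were BM1 control, BM1 with hnRNPM shRNA, LM2 control and LM2 with hnRNPM shRNA, with 1 library each. The shRNA was expressed stably from a lentiviral vector, both sublines derive from 1 parental line, and libraries were made from polyA-selected RNA with a stranded paired-end kit.

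Mitochondrial DNA is transcribed on both strands into long precursor RNAs that run through most of the genome. The tRNAs sit between most of the other genes and are cut out at their 5′ end by RNase P and at their 3′ end by RNase Z (ELAC2), which also frees the neighbouring messenger and ribosomal RNAs. Most mature messages and the rRNAs then receive short A tails, while mature tRNAs receive a CCA end. A polyA-selected library therefore samples mature tRNAs poorly and also holds tRNA sequence that is still part of longer RNAs.

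Of the 22 tRNA genes, 8 were lower with the knockdown in both lines, a share close to that of all genes tested (5038 of 13928). The first set of sequences shows these 8 tRNAs. Each is the mature-gene sequence from the GENCODE 29 transcripts (GRCh38), 5′ to 3′ on the strand of the gene, with the anticodon in capitals. The deposited table gives every member the same start, end and strand as this annotation.
MT-TF, tRNA for phenylalanine, chrM:577-647, plus strand: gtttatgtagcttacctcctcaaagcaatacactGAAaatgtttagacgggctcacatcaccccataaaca
MT-TV, tRNA for valine, chrM:1602-1670, plus strand: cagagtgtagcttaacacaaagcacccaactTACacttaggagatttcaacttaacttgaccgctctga
MT-TM, tRNA for methionine, chrM:4402-4469, plus strand: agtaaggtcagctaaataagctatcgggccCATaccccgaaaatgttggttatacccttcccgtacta
MT-TD, tRNA for aspartate, chrM:7518-7585, plus strand: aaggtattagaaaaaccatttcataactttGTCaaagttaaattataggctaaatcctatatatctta
MT-TT, tRNA for threonine, chrM:15888-15953, plus strand: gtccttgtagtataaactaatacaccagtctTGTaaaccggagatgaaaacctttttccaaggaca
MT-TI, tRNA for isoleucine, chrM:4263-4331, plus strand: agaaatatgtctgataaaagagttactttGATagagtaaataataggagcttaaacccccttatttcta
MT-TQ, tRNA for glutamine, chrM:4329-4400, minus strand: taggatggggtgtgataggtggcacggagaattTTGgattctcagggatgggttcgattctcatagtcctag
MT-TL1, tRNA for leucine, chrM:3230-3304, plus strand: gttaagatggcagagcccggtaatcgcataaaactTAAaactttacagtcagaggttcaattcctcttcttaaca

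The second set shows the 4 tRNAs of the cluster between MT-ND2 and MT-CO1 on the minus strand, which were higher with the knockdown in both lines. Capitals again mark the anticodon.
MT-TA, tRNA for alanine, chrM:5587-5655, minus strand: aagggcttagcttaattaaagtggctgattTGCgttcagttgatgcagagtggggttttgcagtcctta
MT-TN, tRNA for asparagine, chrM:5657-5729, minus strand: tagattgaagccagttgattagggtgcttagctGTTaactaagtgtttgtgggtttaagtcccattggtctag
MT-TC, tRNA for cysteine, chrM:5761-5826, minus strand: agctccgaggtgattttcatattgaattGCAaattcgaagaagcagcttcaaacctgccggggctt
MT-TY, tRNA for tyrosine, chrM:5826-5891, minus strand: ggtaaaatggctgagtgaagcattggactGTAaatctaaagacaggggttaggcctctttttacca

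Base composition differed between the strands. Guanine made up 10.3% to 19.1% of the bases of the 14 plus-strand tRNAs (median 15.4%) and 23.5% to 36.1% of those of the 8 minus-strand tRNAs (median 28.0%). G and C content ran from 23.5% to 48.6% (median 39.8%) in the 8 tRNAs lower in both lines, 7 of them on the plus strand. In the 5 higher in both, all on the minus strand, it ran from 41.1% to 49.3% (median 43.5%). The ranges overlapped, as did length, at 66 to 75 and 66 to 73 bases.

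The targeted gene followed the labels: HNRNPM had 171 FPKM (fragments per kilobase of transcript, scaled to the size of the library) in control and 28.4 in knockdown BM1 cells, and 132 and 20.3 in LM2. Wherever 4 values follow each other below, they stand in this order, control then knockdown, first for BM1 and then for LM2. VIM, CD44 and EGFR, genes looked for in a triple-negative line of mesenchymal type, were all present. VIM had 2354, 1160, 1575 and 1795 FPKM, at 49.3% of control in the BM1 knockdown and 114% in the LM2 knockdown. CD44 was between 155 and 223 FPKM and EGFR between 31.4 and 80.6. No read total is given, but low values fell on steps that put the sequencing depth at 0.729 times that of the BM1 control in the BM1 knockdown, 1.33 times in the LM2 control and 0.871 times in the LM2 knockdown. The labels do not describe separate cultures. With 1 library per line and treatment, the p-values rest on these libraries and on a variance shared across genes. They do not measure the spread between separate cultures.

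With the knockdown the RNA of 5 tRNA genes fell, all on the plus strand: MT-TF, MT-TV, MT-TM, MT-TD and MT-TT. In limma on log2(FPKM + 1) with the line as a term, adjusted by Benjamini-Hochberg over the 13928 genes tested, 5 of 37 mitochondrial genes were lower against 2.76% of all genes, and 0 were higher against 2.71%. All 37 members passed the filter of a mean of 1 FPKM, and 14 (37.8%) had an unadjusted p under 0.05, beside 24.9% of all genes tested. The 5 calls depended on the fit: 0 remained with a pseudocount of 0.1, with no filter or without the line term. Of these 5, quantile normalization left MT-TF and MT-TV, and rescaling to the nuclear genes left MT-TF alone. Fits with 1 library left out also had no line term, so they do not show the effect of the library alone.

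MT-TF, the first gene of the plus strand and the tRNA for phenylalanine, had 181 FPKM in control and 14.8 in knockdown BM1 cells, and 190.5 and 25.7 in LM2. Both knockdown libraries were far below both controls, at 8.18% and 13.5% of the control of the line. The average change was -3.18 ± 0.28 (SE, n = 4 libraries) on the log2(FPKM + 1) scale, with an adjusted p of 0.00285 in limma. Here and below the SE is moderated: limma draws the variance of each gene towards a value taken from all genes tested. The SE is therefore not the spread of a single gene. MT-ATP6 changed by 0.4314 in BM1 and 0.4317 in LM2, yet its SE was 0.2506. MT-TV, the valine tRNA between the 2 rRNA genes, had 182, 44.4, 199.9 and 51.7 FPKM in the same order, so that it lay at 24.4% and 25.9% of control, nearly alike in the 2 lines. Its average change was -1.97 ± 0.25 on that scale (adjusted p = 0.00887, limma).

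MT-TM, the tRNA for methionine that starts mitochondrial proteins as well as extending them, had 151, 28.9, 108 and 37.7 FPKM. Controls and knockdowns did not overlap, and the average change was -1.92 ± 0.29 on the log2 scale (adjusted p = 0.0129, limma). MT-TD, the tRNA for aspartate, had 167, 12.1, 46.4 and 19.0 FPKM. The BM1 control stood above the other 3 libraries, and the LM2 control was the lower of the 2 controls, so the log2 change was -3.68 in BM1 and -1.25 in LM2, with an average of -2.46 ± 0.48 (adjusted p = 0.0271, limma). MT-TT, the tRNA for threonine just downstream of MT-CYB, had 217, 61.1, 205 and 99.1 FPKM and changed by -1.43 ± 0.28 on the log2 scale (adjusted p = 0.0281, limma). Its controls were close to each other and its knockdown libraries were both lower, the BM1 one more so.

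The other 3 tRNAs that were lower in both lines did not pass the test. MT-TQ, the glutamine tRNA and the one minus-strand gene in this set, had 172, 54.1, 107 and 62.7 FPKM (adjusted p = 0.0510, limma). MT-TI, the isoleucine tRNA that shares 3 bases with MT-TQ on the opposite strand, had 293, 87.8, 190 and 128 FPKM (adjusted p = 0.0727, limma). For both, each knockdown library lay below its own control, by more in BM1 than in LM2. MT-TL1, a leucine tRNA and the most abundant tRNA gene in 3 of the 4 libraries, had 973, 589, 774 and 625 FPKM, a smaller difference (adjusted p = 0.262, limma).

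**Figure D1:**
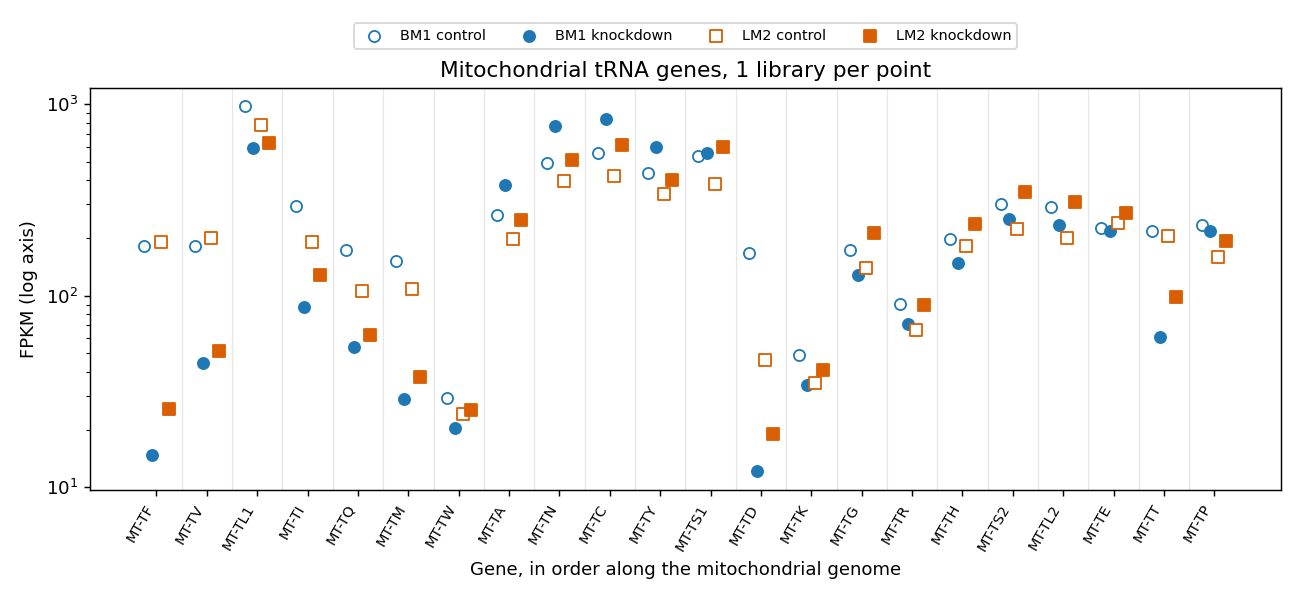
FPKM (log axis) of the 22 mitochondrial tRNA genes in order along the genome, with 1 point per library: open symbols are controls, filled symbols knockdowns, circles BM1 and squares LM2. MT-TF falls from 181 and 190.5 in the controls to 14.8 and 25.7 in the knockdowns, while at MT-TN the knockdowns (773 and 508) lie above the controls of the same line (493 and 396).

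Within a line there is no replicate, so the change was described by a rule of at least 2-fold on that scale. In BM1, 7 of 37 members were at least 2-fold lower with the knockdown against 6.2% of all genes tested, and 1 was at least 2-fold higher against 10.1%. In LM2, 5 were lower against 4.24% and 0 were higher against 3.83%. The 5 members past the rule in both lines were MT-TF, MT-TV, MT-TM, MT-TD and MT-TT, and BM1 added MT-TI and MT-TQ.

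The remaining plus-strand tRNAs moved in opposite directions in the 2 lines. All 14 plus-strand tRNAs were lower with the knockdown in BM1, with log2 changes from -3.68 to -0.26, whereas in LM2 the set split into 7 lower and 7 higher. The 7 that were lower in BM1 and higher in LM2 were MT-TW, MT-TK, MT-TG, MT-TR, MT-TH, MT-TS2 and MT-TL2, which carry tryptophan, lysine, glycine, arginine, histidine, serine and leucine. None was called. MT-TG had 173, 129, 140 and 213 FPKM, and MT-TL2 had 289, 235, 199 and 308. For both, the LM2 knockdown was the highest library and the controls and knockdowns overlapped. MT-TW, with 29.2, 20.3, 24 and 25.2 FPKM, was the least abundant tRNA gene in both controls.

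Of the 22 tRNAs, 5 were higher with the knockdown in both lines, a smaller share than the 4593 of 13928 genes tested. They include the minus-strand tRNAs of the cluster between MT-ND2 and MT-CO1, and none passed the test. MT-TN, for asparagine, had 493, 773, 396 and 508 FPKM, and MT-TC, for cysteine, had 559, 841, 424 and 608. MT-TA, for alanine, had 263, 381, 198 and 250 FPKM, and MT-TY, for tyrosine, had 437, 599, 339 and 400. In these 4 genes each knockdown library was above the control of its line, and the BM1 control was above the LM2 control; in MT-TA, MT-TN and MT-TY it was close to the LM2 knockdown. The average log2 change ran from 0.35 for MT-TY to 0.55 for MT-TC (adjusted p between 0.214 and 0.433, limma). MT-TS1, a serine tRNA outside this cluster, was also higher in both lines, with 535, 554, 382 and 598 FPKM. Its log2 change was 0.049 in BM1 and 0.645 in LM2. Like the 4 cluster genes, it passed the 2-fold rule in neither line. MT-TE and MT-TP, the glutamate and proline tRNAs, changed by less than 0.3 on the log2 scale in either line.

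As a result the summed FPKM of the plus-strand tRNAs was 3296 in the BM1 control and 1727 in the BM1 knockdown, and 2584 and 2250 in LM2. The sum of the minus-strand tRNAs was 2919 and 3638 in BM1, and 2244 and 2890 in LM2. The plus-strand sum was thus the larger in both controls and the smaller in both knockdowns. The sources used here do not say whether counting used the strand, so fragments of a minus-strand gene and of a plus-strand precursor across it cannot be told apart.

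**Figure D2:**
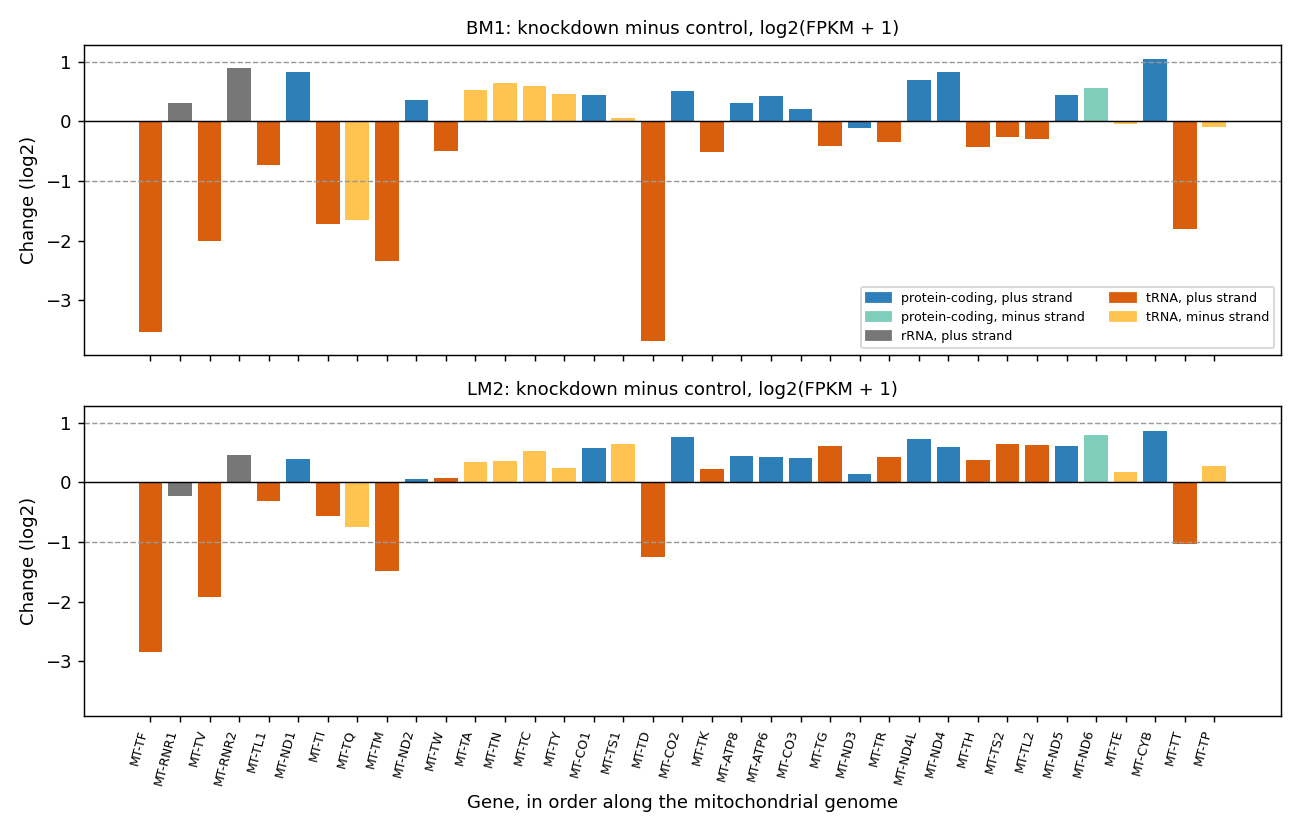
Change with the knockdown (log2(FPKM + 1), knockdown minus control, y axis) of all 37 genes in order along the mitochondrial genome, BM1 above and LM2 below, coloured by kind and strand, with dashed lines at the 2-fold rule. MT-TF (-3.53 and -2.84) and MT-TD (-3.68 and -1.25) are the lowest bars in BM1, and the blue message bars lie mostly above 0.

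Several of the lowered tRNA genes directly adjoin a longer gene, with 0 bases between them. The same holds for plus-strand tRNA genes that were not lower in both lines, among them MT-TW, MT-TG, MT-TR, MT-TH and MT-TL2. MT-TF and MT-TV flank MT-RNR1, the rRNA of the small ribosomal subunit, which had 555, 684, 912 and 773 FPKM. The ratio of MT-TF to MT-RNR1 was 0.326 in the BM1 control and 0.0217 in its knockdown, and 0.209 and 0.0332 in LM2. The ratio of MT-TV to MT-RNR1 was 0.328 and 0.0649 in BM1, and 0.219 and 0.0670 in LM2. Both ratios were therefore lower with the knockdown in each line. MT-TT adjoins MT-CYB in the same way, and MT-TM adjoins MT-ND2, the former being the message with the largest increase.

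The 2 rRNA genes did not pass the test. MT-RNR1 was higher with the knockdown in BM1 and lower in LM2, with an average log2 change of 0.031 (adjusted p = 0.956, limma). MT-RNR2, the rRNA of the large subunit, had 2461, 4557, 3669 and 5020 FPKM, higher in both knockdowns (0.67 ± 0.26 on the log2 scale, adjusted p = 0.159, limma). The 2 rRNAs lie on the same precursor, and the ratio of MT-RNR2 to MT-RNR1 was 4.44 in the BM1 control and 6.67 in its knockdown, and 4.02 and 6.50 in LM2.

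The 13 protein-coding genes are each counted here as 1 message, though MT-ATP6 and MT-ATP8 are read from the same RNA. Of the 13, 12 were higher with the knockdown in both lines, beside 4593 of the 13928 genes tested, but 0 passed the test after adjustment. An unadjusted p under 0.05 was found for 6 (46.2%), beside 24.9% of all genes, and quantile normalization turned the average changes of MT-ND2 (-0.26) and MT-ATP8 (-0.10) negative. Their median log2 change was 0.44 in BM1 and 0.57 in LM2, beside 0.0047 and -0.038 over all genes tested. MT-CYB, the mitochondrially encoded subunit of complex III, had 958 FPKM in control and 1986 in knockdown BM1 cells, and 1044 and 1885 in LM2. Its controls lay close together and its knockdowns were about the same amount above them, by 1.05 and 0.85 on the log2 scale. The average of 0.95 ± 0.25 missed the threshold (adjusted p = 0.0643, limma), and passed it only in the fit with an intensity trend (adjusted p = 0.0241).

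Complex I, the NADH dehydrogenase at the entry of the respiratory chain, has 7 mitochondrially encoded subunits. Of their messages 6 were higher in both lines, beside 4593 of the 13928 genes tested, with 0 called. MT-ND4 had 2645, 4675, 2628 and 3961 FPKM, and MT-ND4L, which shares 7 bases with it, had 2144, 3459, 1889 and 3143. MT-ND1 had 1641, 2901, 1532 and 2008, and MT-ND6, the one message on the minus strand, had 696, 1027, 704 and 1223. In these 4 genes both knockdown libraries exceeded both controls. The average log2 change was 0.71 for MT-ND4, 0.71 for MT-ND4L, 0.68 for MT-ND6 and 0.61 for MT-ND1 (adjusted p between 0.129 and 0.193, limma).

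MT-ND5, with 655, 889, 665 and 1012 FPKM, was the least abundant message in every library and was also higher in both knockdowns. MT-ND2 had 3167, 4042, 2961 and 3091 FPKM, with little change in LM2. MT-ND3 had 2423, 2249, 1961 and 2154 FPKM. It was the one message lower in BM1, and its average log2 change was 0.014 (adjusted p = 0.979, limma).

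Complex IV, cytochrome c oxidase, takes its 3 catalytic-core subunits from this genome. MT-CO1 had 3698, 5007, 3417 and 5081 FPKM, and MT-CO2 had 4117, 5857, 2716 and 4575. MT-CO3, the most abundant message in every library, had 5642, 6479, 4112 and 5479 FPKM. For MT-CO1 the knockdowns exceeded both controls, and for MT-CO3 the BM1 control was above the LM2 knockdown. The average log2 changes were 0.50, 0.63 and 0.31, none called (adjusted p between 0.170 and 0.493, limma). After quantile normalization they were 0.10, 0.13 and 0.

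ATP synthase takes MT-ATP6 and MT-ATP8, which are read from overlapping frames of 1 message and share 46 bases. MT-ATP6 had 1510, 2036, 1529 and 2062 FPKM, and MT-ATP8 had 3839, 4762, 3681 and 4989. Both were higher in each knockdown than in both controls, by 0.43 and 0.37 on the log2 scale on average (adjusted p = 0.324 and 0.392, limma). Although both frames lie on the same message, MT-ATP8 had 2.54, 2.34, 2.41 and 2.42 times the FPKM of MT-ATP6. The sources used here do not say how fragments in the shared bases were assigned.

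**Figure D3:**
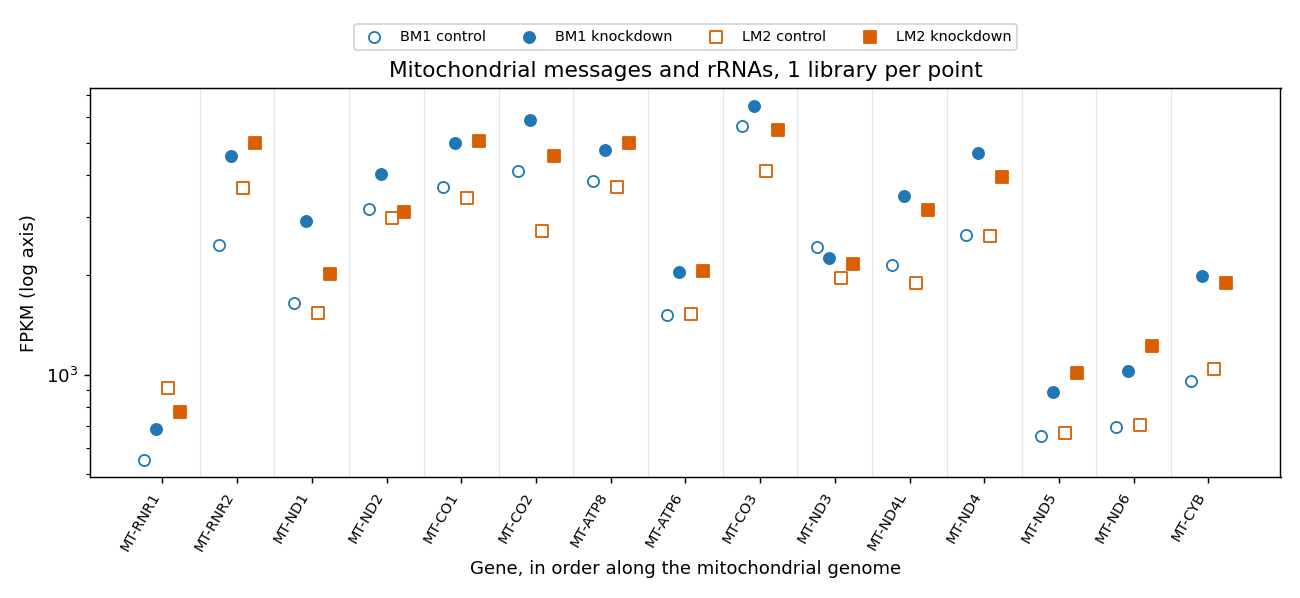
FPKM (log axis) of the 13 messages and 2 rRNAs of the mitochondrial genome, with 1 point per library: open symbols are controls, filled symbols knockdowns, circles BM1 and squares LM2. MT-CYB moves from 958 and 1044 in the controls to 1986 and 1885 in the knockdowns, while MT-ND3 stays between 1961 and 2423 in all libraries.

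The messages were also compared within their own sum. MT-CO3 gave 17% of the summed message FPKM in control and 14.3% in knockdown BM1 cells, and 14.3% and 13.5% in LM2. MT-CYB gave 2.89%, 4.38%, 3.62% and 4.64%, and MT-ND3 gave 7.31%, 4.96%, 6.80% and 5.30%. These 2 messages thus moved oppositely within the total, and in both lines. Complex I as a whole held between 40.4% and 42.8% of the sum in the 4 libraries, and complex IV between 35.5% and 40.6%.

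**Figure D4:**
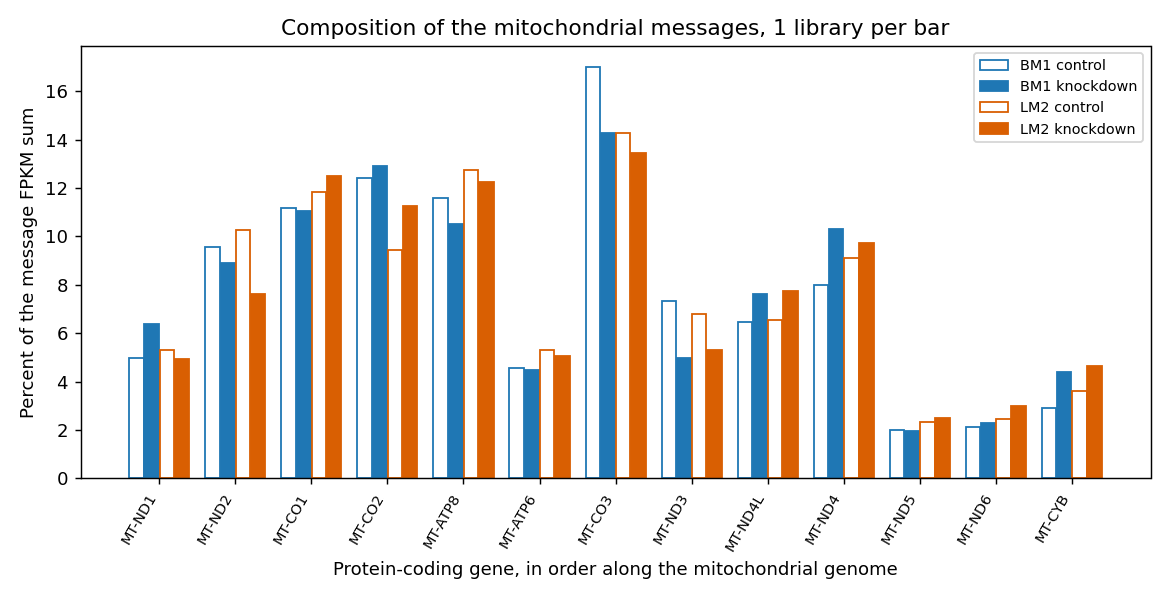
Each of the 13 messages as a percent of the summed message FPKM of its library (y axis from 0), with 1 bar per library: open bars are controls and filled bars knockdowns, blue BM1 and orange LM2. MT-CO3 has the tallest bar in every library, MT-CYB is higher in both knockdowns (4.38% and 4.64%) than in the controls (2.89% and 3.62%), and MT-ND3 is lower.

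Mitochondrial genes together took 9.31% of the summed FPKM of all genes in control and 12.8% in knockdown BM1 cells, and 8.80% and 11.8% in LM2. The messages took 7.28%, 10.4%, 6.64% and 9.32%, and the rRNAs 0.663%, 1.20%, 1.05% and 1.33%. The share was higher with the knockdown in both lines for each of these. The tRNAs took 1.37%, 1.23%, 1.11% and 1.18%, lower in BM1 and slightly higher in LM2. FPKM favours short genes, and weighting each gene by its transcript length gave 2.66%, 3.82%, 2.61% and 3.58%, in the same order. In bulk RNA a change in the number of mitochondrial genomes, in RNA per genome and in the amount of nuclear-encoded RNA cannot be told apart.

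The 2 lines did not differ in any mitochondrial gene by the test. In the same limma fit, 0 of 37 were higher in LM2 than in BM1 against 2.31% of all genes tested, 0 were lower against 2.04%, and 0 had an unadjusted p under 0.05, beside 22.4% of all genes. By direction alone 15 were higher in LM2 and 22 lower. The lowest p belonged to MT-TA, at -0.51 ± 0.25 on the log2 scale (adjusted p = 0.278, limma), and MT-CO2, at -0.48, and MT-RNR1, at 0.45, were among the larger differences.

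Nuclear copies of mitochondrial DNA can share fragments with these genes. The largest lie side by side on chromosome 1, at positions 564442 to 570302 of the plus strand in GRCh37, the build named in the submitters' processing notes. MTATP6P1 had 44.3%, 41.9%, 42.9% and 41.8% of the FPKM of MT-ATP6. MTND2P28 had between 15.5% and 19.2% of that of MT-ND2, and MTCO1P12 between 13.0% and 14.9% of that of MT-CO1. With the knockdown the percentage was lower in both lines for MT-ATP6, and lower in BM1 and higher in LM2 for MT-ND2 and MT-CO1. The authors' counting could split fragments between these copies, so levels of MT-ATP6, MT-ND2 and MT-CO1 are uncertain.

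A list of 47 nuclear genes that copy, transcribe or process mitochondrial nucleic acids was set beside the members, and 46 of them passed the filter. In the knockdown 2 were higher and 0 lower by the same test, against the 2.71% and 2.76% of all genes given above, and 10 (21.7%) had an unadjusted p under 0.05, fewer than the 24.9% of all genes. The median log2 change of the list was 0.43 in BM1 and 0.053 in LM2. With a pseudocount of 0.1, 0 were higher, and without the line term 0 genes of the whole table were called for the knockdown.

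The first of these 2 was HSD17B10, a subunit of mitochondrial RNase P and also a dehydrogenase of fatty acid and amino acid breakdown, with 22.0 FPKM in control and 53.4 in knockdown BM1 cells, and 32.8 and 99.8 in LM2. Both knockdowns exceeded both controls (1.41 ± 0.26 on the log2 scale, adjusted p = 0.0219, limma). RRM2B, a ribonucleotide reductase subunit that supplies nucleotides for mitochondrial DNA, had 3.67, 12.4, 4.64 and 8.99 FPKM and changed by 1.17 ± 0.28 (adjusted p = 0.0466, limma). FASTKD5, which acts on mitochondrial messages whose ends are not set by a tRNA, had 12.5, 25.5, 10.9 and 23.5 FPKM (1.0 ± 0.25, adjusted p = 0.0543, limma). The largest average decreases, none called, were those of TOP1MT (-0.67), the mitochondrial topoisomerase, TFB1M (-0.57), a methyltransferase of the small rRNA, and NRF1 (-0.52), a regulator of nuclear genes for respiration.

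The other enzymes that cut out tRNAs, picked after their values were seen, were not called. TRMT10C, a second subunit of RNase P, had 12.7, 28.3, 21.6 and 27.3 FPKM, and its nuclease subunit PRORP, listed as KIAA0391, had 10.5, 10.2, 9.32 and 7.60. ELAC2 had 64.3, 56.0, 66.8 and 47.0 FPKM, lower in both knockdowns (adjusted p = 0.439, limma). TRMT10C was higher in each knockdown than in its control, and PRORP was lower. In the contrast of the lines 1 of the 46 tested genes of the list was called, beside 2.31% of all genes higher in LM2 and 2.04% lower. This was POLG, the catalytic subunit of the mitochondrial DNA polymerase, with 19.5, 17.4, 36.2 and 54.2 FPKM. It was higher in LM2 by 1.22 ± 0.28 on the log2 scale (adjusted p = 0.0472, limma). Among the alternatives, the POLG call held only with an intensity trend and with nuclear copies added.

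Other measures moved with the treatment beside the tRNAs, and their part in the result was not tested. Among RNAs with no long A tail, RN7SL1, an RNA of the signal recognition particle, had 15.5, 6.28, 27.9 and 6.61 FPKM (-1.55 ± 0.28 on the log2 scale, adjusted p = 0.0214, limma). RN7SL2 had 12.4, 6.20, 22.6 and 7.02 FPKM (-1.23 ± 0.27, adjusted p = 0.0404), RN7SK changed by -1.02 and RPPH1 by -0.56, neither called. Of 46 replication-dependent histone genes listed, 24 were tested, with 1 higher and 0 lower, beside 2.71% and 2.76% of all genes. Their median log2 change was -0.34 in BM1 and 0.46 in LM2. The nuclear-retained NEAT1 had 4.23, 28.8, 5.81 and 24.3 FPKM (2.2 ± 0.27, adjusted p = 0.00759), and MALAT1 had 2.22, 20.1, 4.89 and 9.53 (1.78 ± 0.41, adjusted p = 0.0424), both higher. The calls of RN7SL1, RN7SL2, NEAT1 and MALAT1 were lost without the line term, with no filter, with a pseudocount of 0.1 and with nuclear rescaling. Quantile normalization left only that of NEAT1, and a pseudocount of 0.5 lost those of RN7SL2 and MALAT1.

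Short genes of the nucleus are set beside the tRNAs for their length. Of 144 nuclear genes of at most 80 bases 31 passed the filter, and their median log2 change was -0.0029 in BM1 and -0.15 in LM2. By the test 1 was higher (SNORD5) and 1 lower (RNU7-111P), beside 2.71% and 2.76% of all genes. Both were named after their values were seen. The levels of the 31 short genes were lower than those of most mitochondrial tRNAs. Their median was between 2.06 and 3.11 FPKM per library, beside 139 to 221 for the 22 tRNAs. The sources used here do not say how fragments longer than a gene were assigned, so at a tRNA gene fragments of the tRNA and of longer RNAs that cover it cannot be told apart.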

How the data were processed

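The authors deposited 1 table of FPKM values per gene for 4 libraries of polyA-selected, stranded, paired-end RNA; the submitters' processing notes name STAR 2.5.3a, Cuffdiff 2.2.1 and GRCh37, without their roles, and name no annotation release. From 20369 entries, 40 with a repeated gene ID were left out. Members were all genes named MT-; all 37 were named with their values or by range, and the nuclear list by its called genes and the 3 largest average increases and decreases. Members and lists were chosen with earlier results of these data known. FPKM was tested as log2(FPKM + 1), which understates changes of low genes, with limma 3.58.1 in R 4.3.3 (checked on simulated data): the 13928 genes whose mean reached 1 FPKM, terms for line and treatment, 1 residual degree of freedom, two-sided, Benjamini-Hochberg adjusted, threshold 0.05. The line pairs the libraries by design; across 13928 genes the deviations of a line's control and knockdown libraries correlated at r = 0.545. Depth was read from whole steps of low values, with a tolerance of 0.02 of a step, which 48.8% to 58.4% of values met and 2.53% to 3.25% met at other step sizes, so it is approximate and relative. Sequences came from the GENCODE 29 transcripts, whose mitochondrial positions equal those of the table for 37 of 37 members. Alternatives covered pseudocount, filter, scaling, trend, line term, left-out libraries, fold rule and share weighting. Fits with a left-out library had no line term. Nuclear copies added to their genes and transcript-length weighting were chosen after seeing the data.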

Additional observations from a re-analysis of the deposited data

Results flagged for a closer look

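The knockdown change had opposite signs in the 2 lines for 11 of 37 members (29.7%), close to the 30.9% of all genes tested; with 1 library per arm the difference between the lines was not tested. Of these, 10 were lower in BM1 and higher in LM2, and 9 were tRNAs; this direction was seen in 27.0% of members and 13.6% of all genes tested. On the log2(FPKM + 1) scale the LM2 change minus the BM1 change was 1.02 for MT-TG (-0.42 in BM1, 0.60 in LM2), 0.92 for MT-TL2 (-0.30 and 0.63) and 0.90 for MT-TS2 (-0.26 and 0.64). It was 0.81 for MT-TH (-0.42 and 0.38), 0.78 for MT-TR (-0.35 and 0.43), 0.72 for MT-TK (-0.51 and 0.22) and 0.57 for MT-TW (-0.50 and 0.066). These 7 are the plus-strand tRNAs outside the set that was lower in both lines. The gap was smaller for MT-TP (0.37), MT-ND3 (0.24) and MT-TE (0.22), and MT-RNR1 was the one member higher in BM1 (0.30) and lower in LM2 (-0.24), a difference of -0.54.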

How the results depend on the processing

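The number of mitochondrial genes lower with the knockdown was 5. It became 0 with a pseudocount of 0.1, with no filter or without the block for the line. It was 2 after quantile normalization and 1 after rescaling to the nuclear genes. Fits with 1 library left out also dropped the line block, so calls lost there cannot be put down to the library alone. With no filter or without the line block, 0 genes of the whole table were called for the knockdown in either direction. With a pseudocount of 0.1, 21 were higher and 6 lower, after quantile normalization 54 and 39, and after nuclear rescaling 9 and 7. The intensity trend gave 7 members lower and 1 higher (MT-CYB), beside 428 lower and 460 higher of all genes tested. Adding nuclear copies gave 6 members lower, beside 402 of all genes. In the main fit 384 of all genes were lower and 378 higher, so calls over all genes rose in both settings too. MT-TF, MT-TV, MT-TM, MT-TD and MT-TT kept their direction in all 13 alternatives run for each. Of 481 alternative values of single members 413 neither changed sign nor crossed the threshold (MT-CO3 was at 0 after quantile normalization), 42 lost the call, 4 gained one and 22 changed sign, all of these uncalled. By scaling, quantile normalization turned MT-ND2 to -0.26, MT-ATP8 to -0.10 and MT-TH to 0.043, and nuclear rescaling, which moves the median of all genes to 0.059, turned MT-TH to 0.060. With 1 library left out and no line block, the log2 change ranged across 0 for MT-RNR1 (-0.33 to 0.39), MT-TK (-0.38 to 0.10), MT-TG (-0.27 to 0.45), MT-ND3 (-0.14 to 0.17) and MT-TR (-0.19 to 0.26). The same was seen for MT-TH (-0.36 to 0.32), MT-TS2 (-0.048 to 0.42), MT-TL2 (-0.10 to 0.43), MT-TE (-0.10 to 0.21) and MT-TP (-0.19 to 0.36). In these fits 1 arm held a single line, so the difference between the lines enters the change beside the knockdown. At least 1.5-fold, 7 members were higher and 8 lower in BM1, and 10 were higher and 6 lower in LM2. After nuclear rescaling 2 were at least 2-fold higher in BM1. The share of all genes past these altered rules was not determined, so these counts cannot be read as particular to the members. The mitochondrial share, control then knockdown and BM1 before LM2, was 7.28%, 10.4%, 6.64% and 9.32% for messages alone, 2.66%, 3.82%, 2.61% and 3.58% weighted by transcript length (chosen after seeing the data), and 0.232%, 0.317%, 0.221% and 0.301% weighted by gene span, each higher with the knockdown. With a pseudocount of 0.1, 0 nuclear machinery genes were higher. The cause of these differences was not tested. The contrast of the lines gave 0 calls among the mitochondrial genes in every alternative. RRM2B and HSD17B10 kept their direction in all 13 alternatives and their call in 3 and 4. With 4 libraries and 1 residual degree of freedom, a change missing the threshold is not shown to be absent.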
